A study of Mus musculus with 4 samples.

Results

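The cytoplasmic ribosomal protein genes were examined in chromatin accessibility maps of mouse pachytene spermatocytes. They were taken as the protein-coding genes of the mouse GRCm38 (mm10) annotation whose symbols carry the Rpl or Rps stem followed by a number, with Rpsa and the stalk genes Rplp0, Rplp1 and Rplp2. The S6 kinases, which share the stem, and the testis retrogene Rpl10l were left out. The rule found 90 of 21887 protein-coding genes. Of these, 77 encode canonical ribosomal proteins: 31 of the small subunit, 43 of the large subunit and 3 of the stalk. The other 13 were paralogues, retrocopies or unrelated symbols, and are described apart.

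Open chromatin was mapped by ATAC-seq, which sequences the fragments that a transposase releases from accessible DNA. Spermatocytes isolated from mouse testis were kept for 12 h with BMH-21, which blocks RNA polymerase I, at 2.5 µM, or with the vehicle DMSO (Mock). The labels give no strain, age or genotype. Each group had 2 libraries from about 10000 cells each, which the submitters call biological replicates. No label ties them to separate animals, and the spread between them may be partly technical. The question for these genes is how their accessibility stood after RNA polymerase I was inhibited.

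A ribosome joins rRNA, made mostly by RNA polymerase I in the nucleolus, to one copy of nearly every ribosomal protein, whose genes are read by RNA polymerase II. The protein genes are scattered over the chromosomes, are short, are transcribed in nearly every cell and typically start within a run of pyrimidines. In their mRNAs that run becomes the 5′ terminal oligopyrimidine (TOP) motif, through which mTOR and LARP1 control their translation. In pachytene the X chromosome lies in the silenced XY body, and autosomal copies such as Rpl10l and Rpl39l are known to serve in male germ cells.

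A start from the RefSeq promoter table (GRCm38.p6, 250 bases before to 50 after each start) was found for 69 of the 90 genes. The 5 sequences that follow show the start element. Each is 120 bases long, 5′ to 3′ on the gene's strand, and the start is base 101. Capitals mark 2 things. One is a run of at least 7 pyrimidines, C or T, that has at least 7 of its bases between 5 bases before and 15 bases after the start. The other is the ETS core CCGGAAG on either strand, which contains G and so cannot be taken for a run.
Rpl15 (chr14:18270967-18271086, minus strand): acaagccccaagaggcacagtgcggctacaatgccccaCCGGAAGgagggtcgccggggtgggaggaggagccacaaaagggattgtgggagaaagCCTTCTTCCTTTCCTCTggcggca
Rpl13a (chr7:45128726-45128845, minus strand): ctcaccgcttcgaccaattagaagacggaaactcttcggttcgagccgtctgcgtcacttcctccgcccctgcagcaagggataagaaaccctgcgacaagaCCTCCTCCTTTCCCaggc
Rpl35a second start (chr16:33056382-33056501, plus strand): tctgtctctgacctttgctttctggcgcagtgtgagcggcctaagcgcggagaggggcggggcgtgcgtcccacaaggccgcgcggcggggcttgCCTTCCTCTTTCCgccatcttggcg
Rpl39 (chrX:37085203-37085322, minus strand): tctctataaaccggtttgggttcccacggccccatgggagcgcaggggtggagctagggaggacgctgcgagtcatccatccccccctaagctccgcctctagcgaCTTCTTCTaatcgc
Rpl31 (chr1:39367751-39367870, plus strand): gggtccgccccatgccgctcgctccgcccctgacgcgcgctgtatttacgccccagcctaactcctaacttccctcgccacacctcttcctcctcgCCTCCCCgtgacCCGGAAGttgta

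The run of pyrimidines was 17 bases long in Rpl15, 14 in Rpl13a, 13 at the second of the 3 starts of Rpl35a, 8 in Rpl39 and 7 in Rpl31. Such a run was present at 29 of 69 members (42%), against 12.1% of 17492 protein-coding genes with a start. Mitochondrial ribosomal protein genes, whose products build the separate ribosome of the mitochondrion, held it at 2 of 69 (2.9%). The ETS core was found on either strand of the 300 bases at 37.7% of the members, at 37.7% of the mitochondrial set and at 12.9% of all genes. The YY1 core ATGGCGG was found at 15.9% of members and 6.05% of all genes. The SP1 box GGGCGG was found at 58% and 49.2%, and TATAAA at 13% and 14.8%. Median GC content was 57% in members and 56.3% in all genes. These matches describe the sequence and are not evidence of binding.

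Nearly all of these genes had an accessible region at a gene end in every library. A peak within 1 kb of either gene end was called at 81 and 81 of the 90 genes in Mock and at 83 and 82 in BMH-21. All 4 libraries held one at 80 genes, while the background share over all protein-coding genes was 57.9%. The difference of the group means was 1.5 genes, with p = 0.33 by exact permutation of the libraries (two-sided). With 2 libraries a group this is the smallest p possible, so no exact permutation test here can pass 0.05. The whole lists held 109230 and 117905 peaks for Mock, against 51234 and 55459 for BMH-21. Of the 15040 protein-coding genes that carried such a peak in each Mock library, 11.5% had none in either BMH-21 library. Among the members the only such gene was Rpl37rt, a retrocopy, whose Mock peaks of 3140 and 3100 bp also lay at the end of Acads.

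Peaks in both BMH-21 libraries but neither Mock library were found at 2 members, Rpl22 and Rps27l (background 2.86% of genes without a Mock peak). In both genes the peak was present throughout and its edge crossed the 1 kb line. At Rpl22 the peak over the second RefSeq start had pileups of 130 and 130 fragments in Mock, against 147 and 147 in BMH-21. Its nearer edge lay 1159 and 1217 bp from the gene end in Mock, against 931 and 887 bp in BMH-21. At Rps27l, a stress-induced paralogue of Rps27, the same distances were 1009 and 1063 bp, against 941 and 906 bp. The Rps27l pileups were lower in BMH-21, at 111 and 133 fragments in Mock, against 103 and 109. The peaks of Rps2 and Rpl17 lay inside the gene in all 4 libraries and were more than 1 kb from either end. Counting these, all 77 canonical genes had a peak at an end or inside the gene in every library.

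The start of Rps2 and the second start of Rpl22 are shown because a peak outside the gene-end window of the annotation covers them. That was so in all 4 libraries at Rps2 and in Mock alone at Rpl22. Neither start holds a marked element in these 120 bases.
Rps2 (chr17:24719963-24720082, plus strand): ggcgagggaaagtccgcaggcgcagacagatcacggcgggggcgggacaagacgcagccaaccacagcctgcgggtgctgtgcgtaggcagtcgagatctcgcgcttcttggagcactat
Rpl22 second start (chr4:152325626-152325745, plus strand): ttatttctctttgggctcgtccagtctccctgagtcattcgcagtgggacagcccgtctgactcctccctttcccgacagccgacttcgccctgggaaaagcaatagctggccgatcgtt

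The Rps2 peak covers the start at position 24720063 of chromosome 17. Its pileup was 112 and 113 fragments in Mock, against 141 and 147 in BMH-21. The BMH-21 peaks were the taller and the narrower, at 884 and 841 bp against 973 and 995 bp, and the groups did not overlap in either measure.

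The remaining members without a gene-end peak in some library carry names of retrogenes, pseudogenes or paralogues. Rpl34-ps1, Rps27rt, Rpl32l and Rps23rg1 had none in any library, and Rpl31-ps12 had one in BMH-21 library 1 alone. Among 319 annotated ribosomal protein pseudogenes, which are mostly inserted cDNA copies without the parent promoter, 40 and 45 had a gene-end peak in Mock (12.5% and 14.1%), against 20 and 22 in BMH-21 (6.27% and 6.9%). Over all protein-coding genes the shares were also lower in BMH-21, at 70.1% and 70.7% in Mock, against 61% and 61.5%.

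Within each library's own list the members ranked near the top. The median percentile of their strongest gene-end peak by summit pileup, the number of fragments stacked at the highest point, was 93.5 and 94.2 in Mock, against 92.0 and 93.0 in BMH-21. By width it was 90.1 and 89.9 in Mock, against 88.1 and 89.6 in BMH-21. In the 4 lists, 59, 62, 58 and 55 members stood above the 90th percentile by pileup. Since the lists differ in length, these ranks cannot show whether the members changed between groups.

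For comparison between libraries, each gene was ranked among the 12679 protein-coding genes with a gene-end peak in all 4 libraries, called shared genes here. The 80 members in this set passed by having a peak in every library, and the counts below are of those 80. Members stood in the middle of the shared genes in Mock and higher in BMH-21. Their median pileup percentile was 49.1 and 52.4 in Mock, against 67.4 and 69.1 in BMH-21, with means of 50.8 ± 2.29 and 68.2 ± 1.2 (SD, n = 2 each). The difference was 17.4 percentile points (exact permutation p = 0.33, two-sided). The median pileup of members was 116.5 and 122 fragments in Mock, against 125 and 128 in BMH-21, while that of all shared genes was 117 and 120 against 107 and 108. The members' median was slightly higher in BMH-21 and that of all shared genes lower. As raw pileup, 33 members were higher in both BMH-21 libraries (background 29.6%) and 15 lower (background 52%).

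Gene by gene, 57 of the 80 members had a higher pileup percentile in both BMH-21 libraries than in both Mock libraries (background 42.7%), and 6 had a lower one (background 39.5%). The small subunit contributed 25 higher and 1 lower of 30, the large subunit 26 and 4 of 41, and the stalk 3 and 0 of 3.

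**Figure D1:**
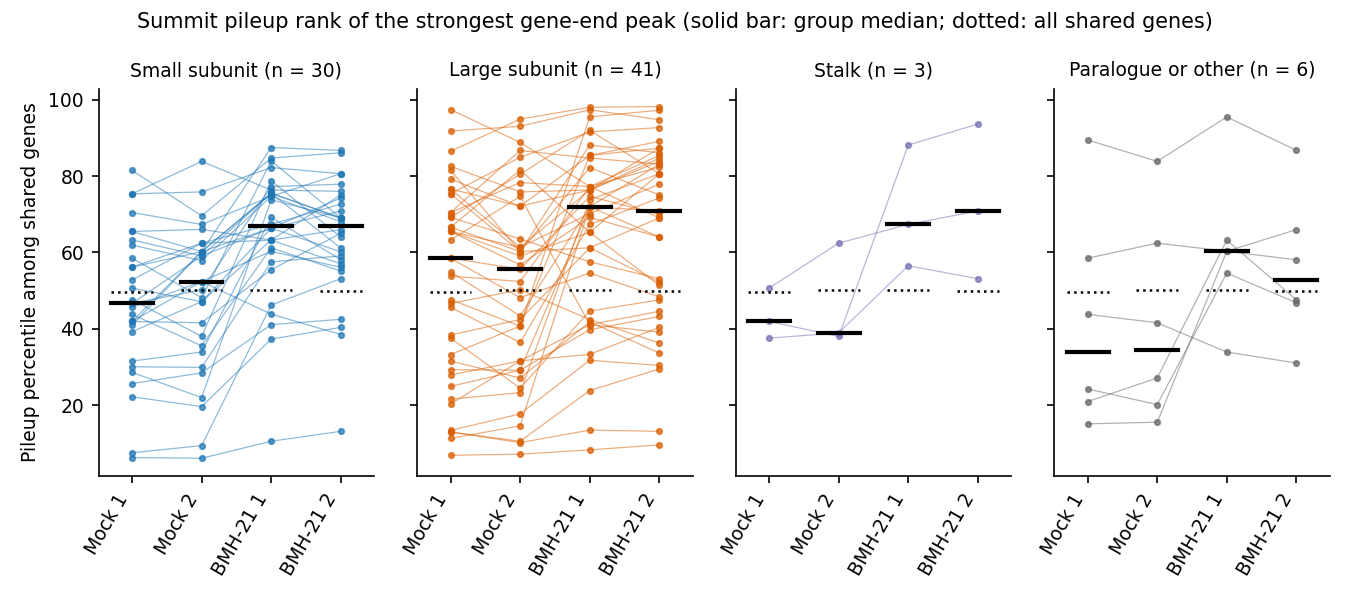
Percentile of the summit pileup of the strongest gene-end peak among 12679 shared genes (y axis) in each library (x axis), for members of the 4 role groups; each point is a gene in one library, thin lines join a gene across libraries, solid bars are group medians and dotted bars the median of all shared genes. The large-subunit median was 58.5 and 55.6 in Mock, against 72.0 and 70.9 in BMH-21, and the 4 X-linked genes have the lowest mean percentiles.

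The largest difference in pileup percentile was at Rpl3, which encodes a core large-subunit protein near the peptidyl transferase centre (chromosome 15, 80077781 to 80083406). Its pileup was 62 and 71 fragments in Mock, against 130 and 144 in BMH-21, and its width was 827 and 714 bp against 1350 and 1295 bp. Both BMH-21 libraries stood well above both Mock libraries, and its percentile was 64.6 points higher. Rpl27, another large-subunit gene, had pileups of 99 and 110 in Mock, against 165 and 173 in BMH-21. Rplp2, which encodes an acidic stalk protein that helps to recruit elongation factors, had 109 and 107 against 150 and 162. In these 3 genes the groups were far apart compared with the spread inside each group. Rpl18, of the large subunit, had 83 and 87 against 132 and 141 at a peak by its gene end, within 1 kb of an end of Fam83e in the annotation. That peak lay beyond the Rpl18 gene end in Mock, and its edge just reached into the gene in BMH-21. At the Rpl18 start the pileups were 118, 118, 134 and 132. The percentile difference of Rpl18 was 54.8 points at the first peak, 24.6 at the start and 28 with a 2.5 kb window.

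Some members stood highest in both groups. Rpl15 led by mean percentile, with pileups of 149 and 162 in Mock, against 175 and 178 in BMH-21. Rpl37 followed with 155, 159, 172 and 165 fragments, in the order Mock 1, Mock 2, BMH-21 1 and BMH-21 2, which is used for all 4-value series here. Rpl36al had 152, 149, 165 and 149 fragments, Rpl19 165, 154, 136 and 143, and Rpl30 139, 150, 156 and 160. Of these 5 genes, Rpl15, Rpl37 and Rpl30 had both BMH-21 values above both Mock values, Rpl36al overlapped and Rpl19 was lower.

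Members that were lower in BMH-21 were few. Rpl7 had pileups of 129, 141, 95 and 93 fragments, and its percentile was 28.9 points lower. The strongest peak of Rpl7 lies beyond the gene end, starting at about 16104663 on chromosome 1. With the peak nearest to a gene end in place of the strongest, its percentile was 17.1 points higher. Rpl19 had 165, 154, 136 and 143 fragments, Rpl28 134, 132, 115 and 112, and Rpl4 114, 120, 97 and 88. The strongest peak of Rpl4 lay at one gene end in Mock and at the other in BMH-21. These 4 large-subunit genes had both BMH-21 values below both Mock values. So did the paralogue Rpl7l1.

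The peaks of the members were also relatively wide in BMH-21. Their median width was 940 and 916 bp in Mock, against 985 and 975.5 bp in BMH-21, while that of all shared genes was 992 and 992 bp against 922 and 903 bp. As a percentile among shared genes the members' median width was 44.3 and 41.8 in Mock, against 57.6 and 59.0 in BMH-21, with means of 43 ± 1.71 and 58.3 ± 1.03 (SD, n = 2 each). The difference was 15.3 points (exact permutation p = 0.33, two-sided). In both BMH-21 libraries 55 members ranked wider than in both Mock libraries (background 50.3%) and 4 narrower (background 24.7%). The share of wider members was thus 68.8%. In bp, 32 were wider (background 23.4%) and 17 narrower (background 46.8%). Apart from Rpl3, the difference was large at Rps14 of the small subunit, with 831, 813, 1169 and 1191 bp. Rps12 had 1130, 855, 1334 and 1348 bp. At Rpl41, which encodes a very short, basic protein, widths were 1139, 1145, 2066 and 2068 bp. There a single peak in BMH-21 covered what was called as separate peaks in Mock. Narrower were Rpl26, with 1191, 1183, 815 and 841 bp, and the X-linked Rpl39, with 883, 821, 305 and 399 bp.

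The read density around the members differed between the groups as well. The peak caller's local background was recovered for each peak from its fold and p. Where it exceeded the genome-wide value it came in whole steps of 0.02 in all peaks of the 4 lists. With a fragment length of 200 bp, the width of the shortest peaks, that step is 1 read end in a window of 10 kb. The submitters' notes do not state the window. Local density is this background as a multiple of the genome-wide background of the same library. It cannot fall below 1, and it includes the reads of the peak, so a taller or wider peak adds to it.

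Local density around the members was 2.80 and 2.89 times the genome mean in Mock, against 4.44 and 4.61 times in BMH-21 (medians of 80). All shared genes had medians of 3.01 and 3.16 in Mock, against 2.91 and 3.09 in BMH-21. The members thus went from slightly below the other genes to well above them, and the groups did not overlap. The log2 ratio of the group means of these medians was 0.67 (exact permutation p = 0.33, two-sided). The median over genes of the log2 ratio was 0.56 in members and 0.03 in all shared genes. In both BMH-21 libraries density was higher than in both Mock libraries at 65 of 80 members (background 45.7%) and lower at 8 (background 41.4%). Without division by the genome-wide background, 66 were higher (background 43.6%) and 10 lower (background 45.5%).

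**Figure D2:**
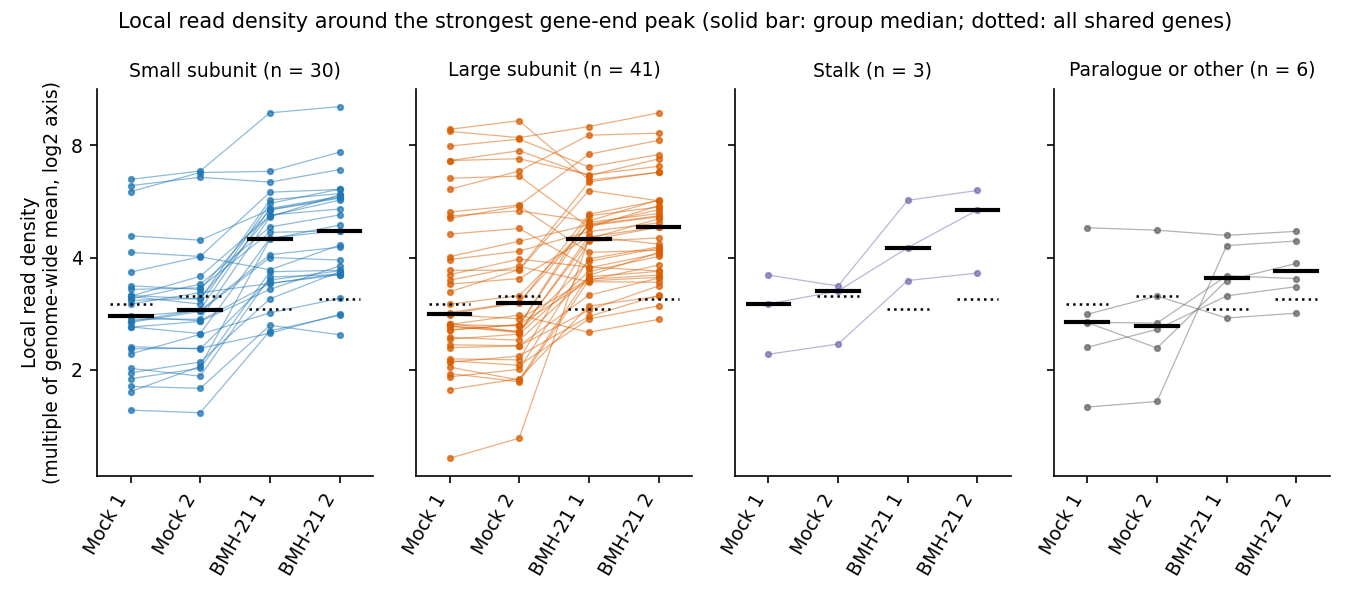
Local read density around the strongest gene-end peak, as a multiple of the genome-wide mean on a log2 axis (y), in each library (x) for the 4 role groups; points are genes, thin lines join a gene across libraries, solid bars are group medians and dotted bars the median of all 12679 shared genes. The small-subunit median was 2.78 and 2.89 in Mock, against 4.5 and 4.72 in BMH-21.

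Density was higher at 28 and lower at 0 of 30 small-subunit genes, higher at 30 and lower at 7 of 41 large-subunit genes, and higher at 3 of 3 stalk genes. The difference between the subunits was not tested. Among protein-coding genes no longer than the longest canonical member, 11774 bp, density was higher at 43.9% of 3937. The part of gene length in the members' result was not tested.

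Within the small subunit, log2 density ratios ran from 0.05 at Rps15 to 1.30 at Rps28. Rpsa, whose product is also known as the laminin receptor, had densities of 3.15, 3.57, 5.18 and 5.70. Rps3, whose product lines the mRNA entry, had 2.02, 1.92, 3.55 and 3.60. Both BMH-21 values were well above both Mock values in each. Rps6, which encodes the phosphorylated target of the S6 kinases, had 3.00, 3.22, 3.41 and 3.60, so its groups were close. At Rps15, with 6.24, 6.57, 6.38 and 6.89, the groups overlapped. Of the stalk, Rplp0, the scaffold of the other stalk proteins, had 3.00, 3.25, 4.25 and 5.37, and Rplp1 had 2.20, 2.35, 3.47 and 3.64. The BMH-21 libraries of Rplp0 differed more from each other than its Mock libraries did. These genes, and those named by density below, were chosen after their values were seen.

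Rpl3 had the largest density ratio of the members. Its density was 1.16 and 1.31 in Mock, against 4.49 and 5.08 in BMH-21, a log2 ratio of 1.95, from the lowest of the members in Mock to near the members' median. Rpl39l, the testis-expressed paralogue of Rpl39, had 1.59, 1.65, 4.31 and 4.43 (log2 ratio 1.43). Rps28, whose product sits near the mRNA exit of the small subunit, had 1.75, 2.04, 4.48 and 4.89 (1.30). Rpl23 had 1.92, 2.01, 3.97 and 4.27, and Rpl31 2.14, 2.13, 4.42 and 4.52, each with a log2 ratio of 1.07. At each of these genes the groups differed by far more than the libraries within a group.

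Lower density was measured at Rpl19, with 8.83, 9.31, 6.46 and 6.77 times the genome mean (log2 ratio −0.46), and at Rpl7, with 5.10, 5.50, 4.13 and 4.19 (−0.35). Rpl10a had 6.53, 6.62, 4.82 and 5.51 (−0.35), Rpl28 4.63, 4.79, 3.76 and 4.10 (−0.26) and Rpl18 7.97, 8.31, 7.0 and 7.56 (−0.16), whereas at the Rpl18 start the groups overlapped. All 5 encode large-subunit proteins and began above the median of the shared genes in Mock. The strongest gene-end peak of Rpl19 begins at 98021505 in Mock library 1, whereas its RefSeq starts lie inside the annotated gene at 98026710 and 98026924 of chromosome 11. At the peak over the second start, which reaches the first in BMH-21 library 1 alone, density was 5.70, 5.74, 6.43 and 7.18, with both BMH-21 values above both Mock values.

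The starts of the members with the largest density ratios that have an entry in the promoter table, and the second start of Rpl19 for contrast, are shown with the same marking and length. Rpl3 and Rpl7 are named only.
Rpl39l (chr16:10170128-10170247, plus strand): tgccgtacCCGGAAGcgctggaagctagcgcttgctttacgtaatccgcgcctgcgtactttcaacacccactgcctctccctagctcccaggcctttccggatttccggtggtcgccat
Rps28 (chr17:33824543-33824662, minus strand): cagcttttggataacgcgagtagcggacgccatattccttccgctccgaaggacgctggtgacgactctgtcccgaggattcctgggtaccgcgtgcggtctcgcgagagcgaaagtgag
Rpl23 (chr11:97782420-97782539, minus strand): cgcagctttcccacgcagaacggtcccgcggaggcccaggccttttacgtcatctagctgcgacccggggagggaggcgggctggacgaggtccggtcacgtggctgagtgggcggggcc
Rpl19 second start (chr11:98026824-98026943, plus strand): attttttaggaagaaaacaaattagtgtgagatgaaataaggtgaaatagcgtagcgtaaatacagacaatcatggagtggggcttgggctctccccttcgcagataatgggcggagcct

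None of these 4 held a pyrimidine run by the criterion used, and an ETS core stood in the printed bases of Rpl39l. Rpl31, printed above with both, had a log2 ratio like that of Rpl23, printed here with neither. Over the members with a start entry and a peak in all libraries, the median log2 density ratio was 0.55 in 27 genes with the pyrimidine run and 0.54 in 34 without it. With the ETS core it was 0.52 (24 genes) and without it 0.56 (37 genes). For the YY1 core it was 0.42 with (10 genes) and 0.56 without (51 genes). For the SP1 box it was 0.51 with (38 genes) and 0.65 without (23 genes), and for TATAAA 0.52 (5 genes) and 0.55 (56 genes). These differences were not tested.

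**Figure D3:**
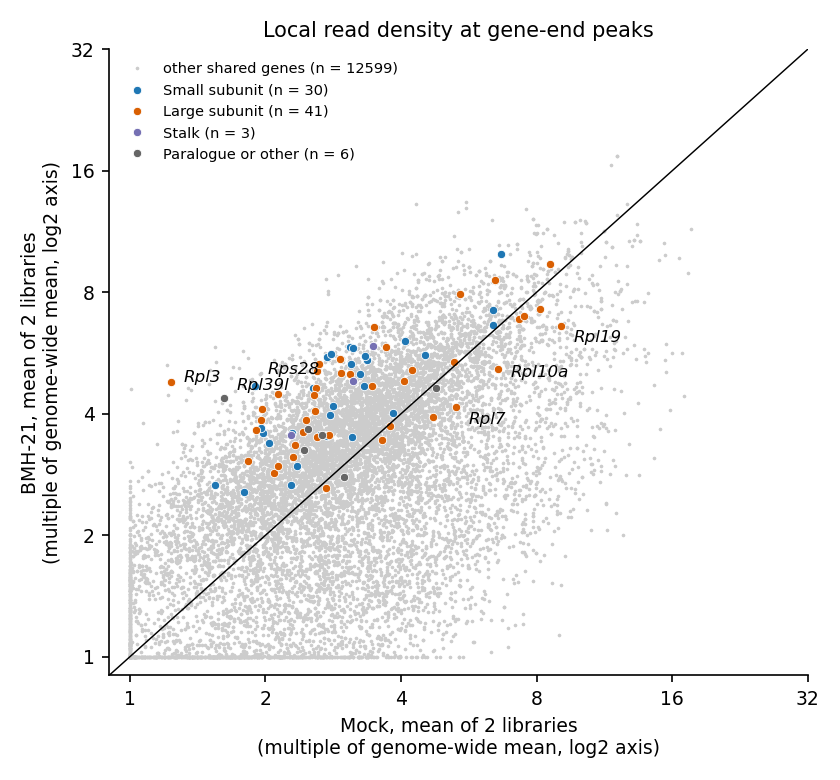
Mean local density of the 2 Mock libraries (x) against that of the 2 BMH-21 libraries (y), as multiples of the genome-wide mean on log2 axes; grey points are the 12599 other shared genes, coloured points the 80 members by role, and the line marks equal values. Most members lie above the line, Rpl3 farthest from it, and Rpl19, Rpl7 and Rpl10a lie below it.

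Other called peaks near the members were fewer in BMH-21 than in Mock. Within 5 kb of the summit the members had on average 0.55 and 0.55 other peaks in Mock, against 0.30 and 0.39 in BMH-21, while all shared genes had 0.49 and 0.51 against 0.23 and 0.28. At 40 members no other peak was called there in any library. Of these 40, density was higher in both BMH-21 libraries at 39 (background 54.1% of 6767 such genes) and lower at 1 (background 31.5%). Their median density was 2.62 and 2.53 in Mock, against 4.04 and 4.27 in BMH-21, against 2.70, 2.83, 2.91 and 3.11 in all such genes.

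The fold that the authors deposited, which is pileup over local background, was lower in BMH-21. Its median in members was 7.89 and 8.44 in Mock, against 6.01 and 5.99 in BMH-21, and in all shared genes 7.62 and 7.77 against 6.86 and 7.10. By percentile of fold, 14 members were higher (background 39.5%) and 58 lower (background 42%) in both BMH-21 libraries. The members therefore ranked higher by pileup and lower by fold.

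Peaks touching the start window, 250 bases before to 50 after the start, were present in all 4 libraries at 63 of 69 members (background 54.8%). Among them were all 57 canonical genes that have a start. The 6 others were Rpl3l, Rps23rg1, Rpl32l, Rpl31-ps12, Rps27rt and Rpl37rt. Such a peak need not cover the start itself. Its downstream reach was −237 bp at Rpl4 in Mock library 1 and −175 bp at Rps26 in BMH-21 library 2. The median summit lay 92 and 119 bp downstream of the start in Mock, against 10 and 3 bp downstream in BMH-21. In all 9589 genes with such a peak the median offset was 115 bp in both Mock libraries and −10 and −9 bp in BMH-21. The summit lay further upstream in both BMH-21 libraries at 34 of 63 members, which is 54%, against a background of 55%. That share is at the background.

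The reach of the peak into the gene was slightly longer in BMH-21 in members and shorter in all genes. From the start downstream it measured 564 and 540 bp in Mock, against 577 and 585 bp in BMH-21 in members (medians of 63), and 595 and 593 bp against 537 and 525 bp in all genes. Local density at the start peak was higher in both BMH-21 libraries at 54 of 63 members (background 50%) and lower at 4 (background 37.2%). At Rpl41 the peak over the start was 408 bp wide in both Mock libraries and reached 1942 and 1951 bp downstream in BMH-21.

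**Figure D4:**
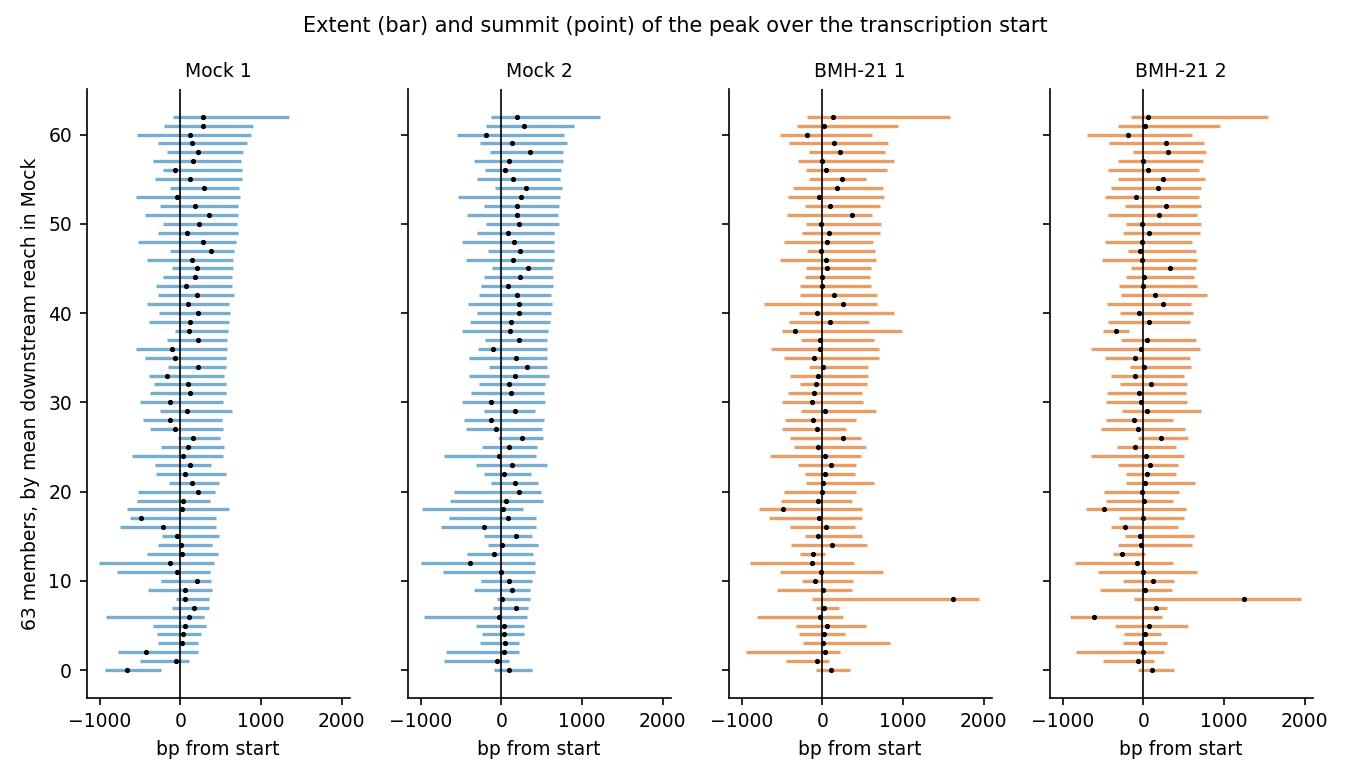
Extent (bar) and summit (point) of the peak touching the start window for 63 members (rows, ordered by mean downstream reach in Mock), in bp from the start with downstream to the right (x), in the 4 libraries. Summits lie mostly downstream of the start in Mock and nearer to it in BMH-21, with medians of 92, 119, 10 and 3 bp.

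The 4 X-linked members had the lowest mean pileup percentiles of the 80. Rpl39 had pileups of 50, 52, 34 and 37 fragments, Rps4x 48, 48, 38 and 43, Rpl36a 66, 61, 43 and 43, and Rpl10 66, 62, 63 and 76. Of these, Rpl39, Rps4x and Rpl36a had fewer fragments in both BMH-21 libraries, while Rpl10 did not. By pileup percentile all 4 were higher in BMH-21, as were 52.1% of X-linked shared genes, by 14.9 points at Rpl10, 5.7 at Rps4x, 1.9 at Rpl39 and 1.7 at Rpl36a. Their median percentile was 9.9, 8.6, 12.0 and 13.1, and that of all X-linked shared genes 18.2, 17.7, 21.1 and 21.4. With the peak nearest to a gene end, the difference turned to −0.00197 at Rpl39 and −0.741 at Rpl36a. Local density was higher at 4 of 4, at 2.13, 2.21, 3.03 and 3.44 times the genome mean (medians). The background among X-linked shared genes was 77.1%, and from 4 genes no difference from that share can be read. Rpl10l, the autosomal retrogene that stands in for Rpl10 in spermatocytes, had pileups of 97, 97, 107 and 99 and densities of 2.48, 2.53, 4.31 and 4.77, a ratio of 1.81.

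The paralogues with peaks in all libraries varied. Rpl39l, besides its density, had pileups of 82, 93, 121 and 105 and widths of 490, 495, 1079 and 543 bp, so only BMH-21 library 1 had the much wider peak. Rpl22l1, which can replace Rpl22, had pileups of 125, 131, 118 and 117 and densities of 2.30, 2.57, 3.16 and 3.34. Rpl36al, an autosomal copy of Rpl36a, had pileups of 152, 149, 165 and 149 and densities of 4.81, 4.74, 4.59 and 4.71. Rps19bp1, whose product binds RPS19 and is no ribosomal protein, had pileups of 87, 82, 112 and 104.

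Rpl3l, the muscle paralogue of Rpl3, had pileups of 71, 73, 118 and 125, but these belong to different peaks. The strongest was at its lower end in Mock and at its upper end, within 1 kb of an end of Msrb1, in BMH-21. At its RefSeq start it had a peak in Mock alone. The strongest peak of Rpl7l1 lay at its start in BMH-21 library 1 and at the far end of the gene in the other 3 libraries. At the start its pileups were 50, 46, 83 and 64, higher in both BMH-21 libraries. The strongest peaks had pileups of 111, 111, 83 and 79 and densities of 2.68, 2.67, 3.58 and 3.51. With the peak nearest to a gene end its pileup percentile was 21.8 points higher in BMH-21 in place of 10.2 lower.

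Ribosomal proteins with other symbols had smaller ratios. Fau, which encodes the RPS30 fusion, and Rack1, a scaffold on the small subunit, had densities 1.22 and 1.29 times as high in BMH-21, each with both BMH-21 values above both Mock values. Rpl5 and Rpl11, chosen after their values were seen because their products bind 5S rRNA and Mdm2 in nucleolar stress, had densities of 2.11, 2.06, 2.74 and 2.97, and of 2.66, 2.53, 4.46 and 4.83.

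Canonical genes with a snoRNA gene between their annotated ends, 30 in number, had density higher at 24 and lower at 1 of 28. Their median log2 ratio was 0.55. Those without one had 37 and 6 of 46, with 0.62. Canonical genes with another protein-coding gene end within 1 kb had 20 and 4 of 27, and those without such a neighbour 41 and 3 of 47. The median log2 ratio was 0.45 beside another gene and 0.62 away from one.

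Other gene lists were placed beside the members. Mitochondrial ribosomal protein genes had a gene-end peak in all libraries at 74 of 78, and density higher at 59 and lower at 9 of the 74. Their medians were 2.39, 2.43, 3.00 and 3.20, with a log2 ratio of 0.37. Width percentile was higher in both BMH-21 libraries at 74.3% of them, against 68.8% of members (background 50.3%). Raw pileup was higher at 51.4% against 41.2% (background 29.6%), and pileup percentile at 63.5% against 71.2% (background 42.7%). The one gene of this list with a peak in BMH-21 alone was Mrps2. Of 18 translation factors and other genes with TOP mRNAs, such as Eef1a1 and Tpt1, 14 were higher and 3 lower (0.31). Of 14 regulators and chaperones of ribosomal proteins, 11 had peaks in all libraries, with 8 higher and 2 lower (0.39). Larp1 and Myc had peaks in Mock alone and Taf1 in none. The cytoplasmic set had the highest median log2 density ratio of these 4 lists, and the difference between lists was not tested.

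**Figure D5:**
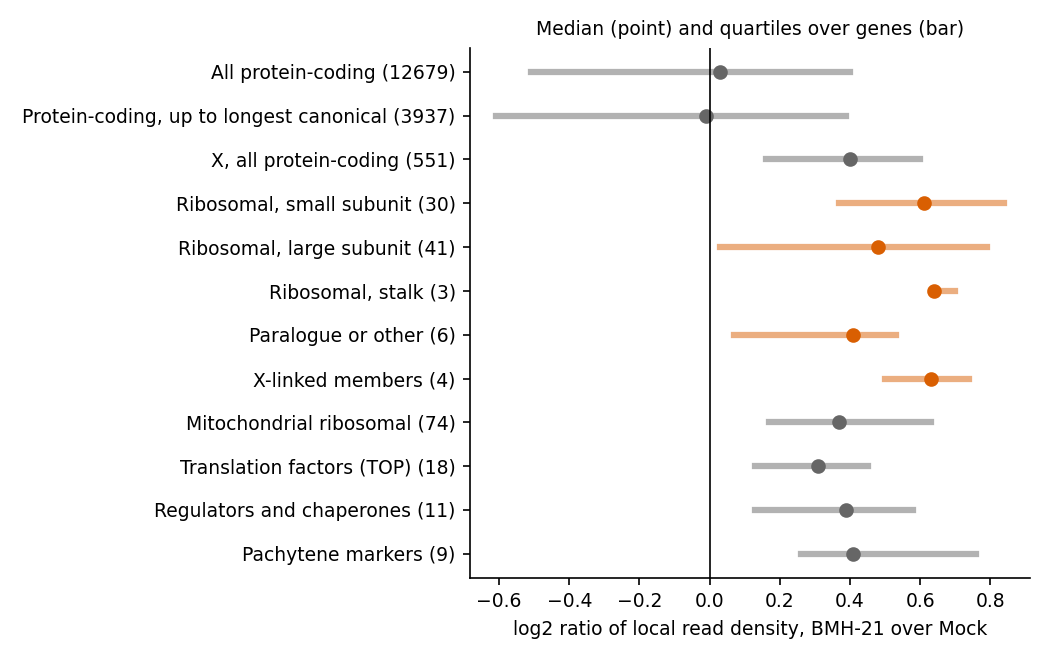
Median (point) and quartiles over genes (bar) of the log2 ratio of local density, BMH-21 over Mock (x), for the role groups of ribosomal protein genes in orange and other gene lists in grey (rows; number of genes with a peak in all 4 libraries in parentheses). The small-subunit median was 0.61 and the large-subunit median 0.48, against 0.03 for all protein-coding genes and 0.40 for those on X.

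Markers of cell types also differed between the groups. Of 10 pachytene markers 9 had a gene-end peak in all libraries. Their density was higher in BMH-21 at 9 of 9 (background 45.7%) with a median log2 ratio of 0.41. Pileup percentile was higher at 4 of the 9 (background 42.7%) and lower at 3 (background 39.5%), and fold percentile lower at 8 (background 42%). Of other markers with a peak in all libraries, density was higher at 0 and lower at 2 of 3 for spermatogonia. It was higher at 0 and lower at 1 of 1 for spermatids, 3 of 3 for Sertoli cells and 2 of 3 for Leydig or peritubular cells. Markers of spermatogonia had gene-end peaks at 6, 6, 4 and 5 of 8 genes, spermatids at 3, 4, 1 and 1 of 6, Sertoli cells at 7, 7, 5 and 4 of 8, and Leydig or peritubular cells at 6, 6, 3 and 3 of 9. All protein-coding genes had them at 70.1%, 70.7%, 61% and 61.5%. Leukocyte markers had them at 5, 6, 0 and 0 of 8, with C1qa, C1qc, Csf1r, Fcer1g and Tyrobp in both Mock libraries and in neither BMH-21 library. In ATAC-seq of a cell mixture, fewer cells of a type and less open chromatin per cell cannot be told apart. The part of this difference in the ribosomal protein results was not tested.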

How the data were processed

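Peaks had been called by the authors for each of the 4 libraries separately. Tools given without settings in the submitters' processing notes were MACS2 2.1.0, Bowtie2, fastp, deepTools and bedtools, with mm39 and mm10 as builds. Coordinates were taken as mm10, since chromosome 1 peaks reach 195371801, past its end in mm39. The deposited fold is a ratio of pileup to local background within a library. Both −log10 values the authors deposited, of p and of q, belong to that enrichment, and the deposited score is derived from q. The deposited summit offset gives the summit position. None is normalised between libraries. Pileup and local background were recovered from fold and −log10 p, to within 0.000799 in −log10 p, and the procedure was tested on simulated data. Read totals were not analysed here. The genome-wide background, which scales with reads used, was 4.54 and 4.31 for Mock libraries and 4.46 and 4.11 for BMH-21 libraries.

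For each gene the gene-end peak with the highest deposited −log10 q was used and is called the strongest, with pileup settling ties. Peaks at starts were also chosen by −log10 q. Groups of 2 libraries were compared by exact permutation, and genes by whether the groups overlapped. Replicate numbers did not pair the libraries, with correlations of deviations of −0.007 to 0.009. Members and lists were chosen with earlier results of these data known, and the local density measure was chosen after seeing the data. Named genes were those without a peak in some library, the 5 highest, lowest and most different by pileup or width, the X-linked genes and the paralogues. Genes named by density were chosen after their values were seen. Some genes that these rules pick are not reported here. Alternatives covered the window, threshold, list length, summit, peak choice, gene set and each library left out. Analyses used Python 3.11.15, numpy 2.4.6, pandas 2.3.3 and scipy 1.17.1.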

Additional observations from a re-analysis of the deposited data

How the results depend on the processing

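The difference in local density kept its direction under all 16 alternatives, which were chosen after seeing the data, with log2 ratios of 0.58 to 0.7. The width in bp and the fold kept theirs under 14 each, at 14.5 to 70 bp and −2.51 to −1.89. Leaving out 1 library gave pileup differences of 15.8 to 19 percentile points, width differences of 14 to 16.4 points, member counts of 1 to 2, 1 Mock-only gene and 2 to 3 BMH-21-only genes. The replicate block left the values as they were (1.5 genes, 17.4 and 15.3 points, 52.2 bp, −2.16 in fold and 0.67 in log2 density), with 0.50 the smallest exact p of 2 pairs. The pileup difference was −1.2 as a percentile within all peaks of a library, −21.4 with the deposited fold and −4.54 with the deposited −log10 q. The width difference was −1.23 within all peaks and 8.3 at start-site peaks, where it was 14.5 in bp. The difference in member genes with a peak was −1 with a 500 bp window or the summit required in the window, 0 with 2.5 kb or −log10 q of at least 5, and −2 for start-site peaks. BMH-21-only genes numbered 0 with 500 bp, the summit rule or start-site peaks, and 1 with 2.5 kb or without paralogues. Mock-only genes numbered 2 with the stricter q or start-site peaks, and 0 without paralogues or without members beside another gene. Among named genes, the pileup percentile of Rpl7l1 was 3.33 points higher with 500 bp, 3.16 with the summit rule, 21.8 with the nearest peak and 18.7 at the start. With the nearest peak it was 17.1 for Rpl7, −0.00197 for Rpl39 and −0.741 for Rpl36a. The log2 density ratio was 0.03 for Rpl23a with 2.5 kb and 0.25 for Rpl19 at the start. Beyond the construction of each setting, the cause was not tested. With 2 libraries a group no exact permutation test can pass 0.05, and without read totals pileups are comparable only through ranks and the genome-wide background.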
